A study of Mus musculus with 24 samples.

Results

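Retinal organoids grown in a rotating-wall bioreactor (RWB) were compared between day 18 (D18, 2 libraries) and day 22 (D22, 3 libraries) of culture, over all genes measured. The 5 libraries are those whose labels give this vessel and these days, out of 24 libraries in the series. Organoids were made from mouse embryonic stem cells, their optic cups were dissected at D10, and the cups were then kept in the turning vessel. Bulk polyadenylated RNA was sequenced from stranded libraries, and repeated experiments were treated by the submitters as biological replicates. Both stem cell clones that the labels name, R1 and a clone from Nrl-GFP transgenic blastocysts, count as wild type there, and no label says which clone gave which library. RWB medium held N2, taurine, 9-cis retinal and IGF1, and from D18 it also held non-essential amino acids, B27 without vitamin A and 2% serum, so day and medium cannot be told apart. Dissected cups in static suspension (SSCd), with 3 libraries each at D18 and D22 and the same change of medium, and 3 RWB libraries of D25 served for comparison.

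Retinal progenitors leave the cell cycle in an overlapping order, with ganglion cells, horizontal cells and cones born early and rods, bipolar cells and Müller glia late. A cell that becomes a rod first makes the homeodomain factors OTX2 and CRX, then the leucine zipper factor NRL, which turns on NR2E3. It later builds the light-sensing cascade, a stack of membrane discs on a modified cilium, and a ribbon synapse.

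Estimated counts per library ranged from 14776479 to 16487005 over the 5 libraries. Mitochondrially encoded genes took 10.2% of the counts in D22 replicate 1 and between 4.42% and 5.76% in the other 4 libraries. Of 16792 genes tested with edgeR's quasi-likelihood test and Benjamini-Hochberg adjustment, 1009 rose (6.01%) and 820 fell (4.88%), at an adjusted p under 0.05. The median log2 fold change of all genes was 0.01, and values in CPM (counts scaled to a common library total) were scaled by the trimmed mean of M values. D22 libraries were all above both D18 libraries for 19.9% of genes and all below them for 20% of genes. Counts of list members given below are to be read against these shares. Calls depended on the D18 libraries, since 365 genes were called without D18 replicate 2 and 1224 without D18 replicate 1. Without D22 replicate 1 the count was 1106. Among markers of other tissue, the summed CPM of 15 mesenchyme genes was 181 and 207 at D18 and 73, 72.4 and 115 at D22, that of 13 lens and surface epithelium genes was between 22.6 and 37.3, and pigment epithelium, neural and endothelial sums are given further on with their genes. In bulk RNA, fewer cells of a type and less RNA per cell cannot be told apart.

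The factors that set rod identity rose, while Otx2, which precedes them, was not called. Nrl rose, with 13.5 and 7.29 CPM at D18 and 479, 298 and 311 CPM at D22 (log2 fold change 5.12 ± 0.59, adjusted p = 2.46e-05), where ± is the standard error. Its target Nr2e3, a nuclear receptor that represses cone genes in rods, had 2.72 and 2.43 CPM at D18 and 202, 176 and 191 CPM at D22 (log2 fold change 6.2 ± 0.64, adjusted p = 7.8e-06). Samd7, a sterile alpha motif protein of photoreceptor nuclei, had 1.13 and 2.63 CPM at D18 and 156, 106 and 137 CPM at D22 (log2 fold change 6.14 ± 0.58, adjusted p = 4.21e-06). In these genes each D22 library was above both D18 libraries many times over. Crx, which was already high at D18, had 556 and 415 CPM at D18 and 1340.1, 1122 and 873 CPM at D22 (log2 fold change 1.2 ± 0.30, adjusted p = 0.0131). Mef2d, a cofactor of CRX, rose with 142 and 119 CPM at D18 and 214, 256 and 279.8 CPM at D22 (log2 fold change 0.93 ± 0.29, adjusted p = 0.0453). Otx2, upstream of Crx, had 513 and 428 CPM at D18 and 943, 730.2 and 632 CPM at D22, with no overlap between the days, and was not called (log2 fold change 0.71 ± 0.26, adjusted p = 0.0893). Prdm1, which holds young photoreceptors off the bipolar fate, had 276 and 255 CPM at D18 and 248, 262 and 239.8 CPM at D22, with overlap (log2 fold change -0.09 ± 0.26, adjusted p = 0.888). Thrb and Onecut1, tied to early-born types, fell, while Sall3 and Lhx4, also factors of cones and given further on, were higher in every D22 library. Thrb, the thyroid hormone receptor gene used by cones, had 153 and 145 CPM at D18 and 83, 72.9 and 65.6 CPM at D22 (log2 fold change -1.01 ± 0.29, adjusted p = 0.028). Onecut1, used by horizontal cells and early cone precursors, had 24.4 and 31.6 CPM at D18 and 6.7, 4.37 and 8.79 CPM at D22 (log2 fold change -2.08 ± 0.31, adjusted p = 0.000333). All 3 D22 libraries were below both D18 libraries for each. Of the 15 photoreceptor factors on the list, 5 rose and 2 fell, with a median log2 fold change of 0.78. In the photoreceptor transcription factors list, the numbers that rose and fell were 3 and 1 without D18 replicate 2 or D22 replicate 1. Nrl, Nr2e3, Samd7 and Onecut1 kept their calls with each of the 5 libraries left out in turn. Crx lost its call without D18 replicate 2 or without D22 replicate 1. Mef2d and Thrb lost their calls without D18 replicate 1 or without D18 replicate 2 or without D22 replicate 1 or without D22 replicate 2 or without D22 replicate 3.

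**Figure D1:**
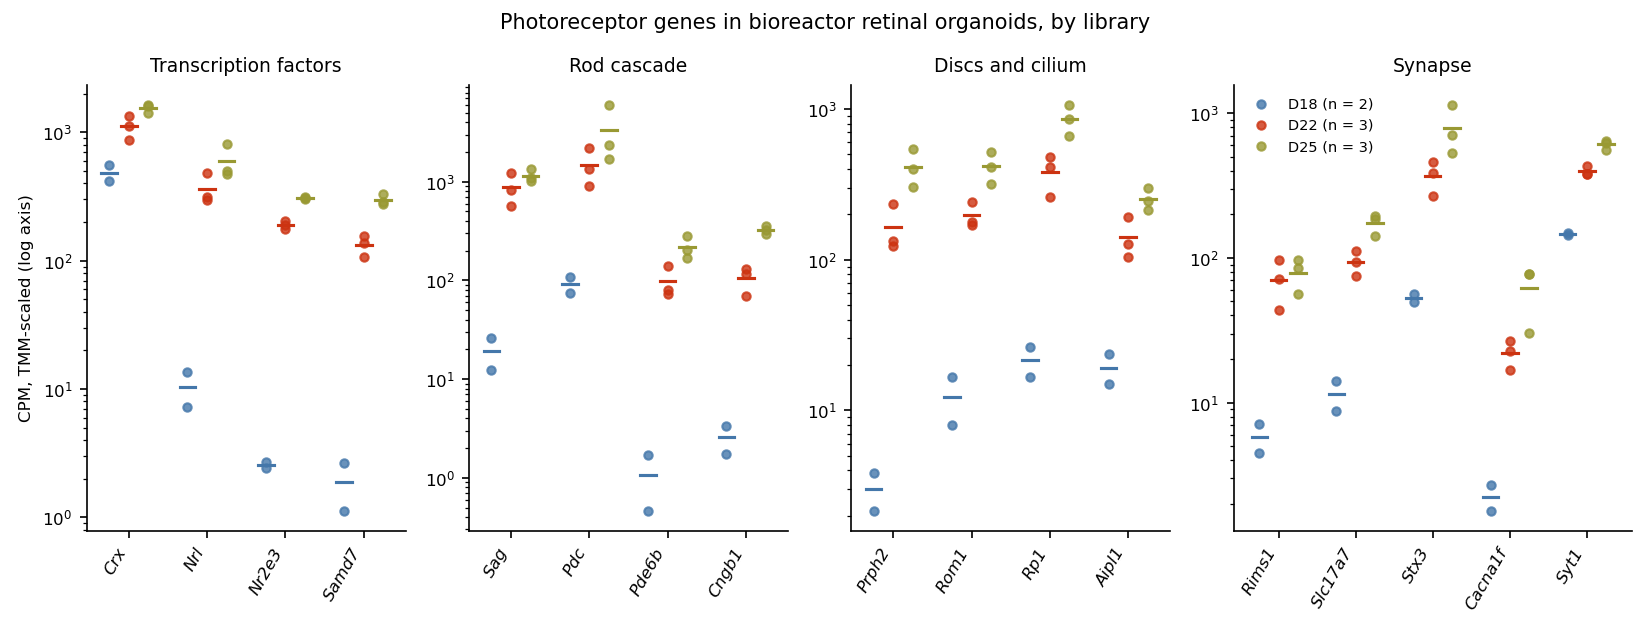
TMM-scaled CPM (log axis) of 17 photoreceptor genes in each RWB library at D18 (2 libraries), D22 (3) and D25 (3); points are libraries and short lines are group means. The D22 points lie above both D18 points for each of these genes, by the widest margin for Nrl, Nr2e3, Samd7, Pde6b and Prph2.

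Genes of the rod light cascade rose as a group: of 23 tested, 17 rose and 0 fell, and 22 had every D22 library above both D18 libraries. Their median log2 fold change was 2.67 against 0.01 for all genes. Of all genes tested, 6.01% rose and 19.9% had every D22 library above both D18 libraries. Sag, which encodes the arrestin of rods, rose, with 26 and 12.3 CPM at D18 and 818, 1237 and 571 CPM at D22 (log2 fold change 5.51 ± 0.69, adjusted p = 6.04e-05). Pdc, the phosducin gene whose product binds transducin subunits, had 109 and 74.7 CPM at D18 and 2180.2, 1334 and 899 CPM at D22 (log2 fold change 4.0 ± 0.67, adjusted p = 0.000748). D22 replicate 3 was the lowest D22 library for both and still far above D18. Pde6b, a catalytic subunit of the rod phosphodiesterase, had 0.465 and 1.69 CPM at D18 and 73, 140.2 and 80 CPM at D22 (log2 fold change 6.5 ± 0.65, adjusted p = 6.47e-06). Pde6g, its inhibitory subunit, had 10.4 and 3.85 CPM at D18 and 93.3, 143 and 75.6 CPM at D22 (log2 fold change 3.86 ± 0.61, adjusted p = 0.000464). Both subunits were highest in D22 replicate 2. Cngb1, a subunit of the rod cation channel, had 3.39 and 1.75 CPM at D18 and 132, 116 and 69.2 CPM at D22 (log2 fold change 5.36 ± 0.80, adjusted p = 0.000327). Cnga1, the other channel subunit, had 3 or fewer counts per library at D18 and 19.7, 48.1 and 9.35 CPM at D22, so no fold is given. Guca1a, an activator of guanylate cyclase, had 0.332 and 0 CPM at D18 and 16.5, 33.6 and 13.5 CPM at D22 (log2 fold change 6.92 ± 0.87, adjusted p = 6.01e-05), and Gucy2e, a cyclase itself, had 3.12 and 2.23 CPM at D18 and 12.6, 15.6 and 21.1 CPM at D22 (log2 fold change 2.62 ± 0.41, adjusted p = 0.000417). Gnat1, the rod transducin alpha subunit, had 3.78 and 3.58 CPM at D18 and 7.01, 7.39 and 3.74 CPM at D22, with overlap (log2 fold change 0.71 ± 0.58, adjusted p = 0.496). In the rod phototransduction list, the numbers that rose and fell were 9 and 0 without D18 replicate 2. Sag, Pdc, Pde6b, Pde6g, Cngb1, Guca1a and Gucy2e kept their calls with each of the 5 libraries left out in turn.

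Promoters of these genes were searched because the members moved together. RefSeq start sites on GRCm38.p6 were matched for 16 of the 23 genes, giving 18 windows, and of each the 150 bases before the start are considered for display, while the search covered the window of 300 bases around it. The CRX core TAATCC, on either strand, lay in 50% of the 18 windows and in 5.97% of the windows of all tested genes. TGCTGA, one arm of the element that NRL and other Maf proteins bind, lay in 27.8% and 16.3%. In the 15 outer segment windows, TAATCC lay in 26.7% and TGCTGA in 6.67%, the latter below its share of all windows. Among the 1086 windows of all genes that rose, TAATCC lay in 7.64%. It lay in 23.1% of the 13 windows of the 15 genes with the highest folds and in 36.4% of the 11 windows of the 15 with the lowest. Sag, Cngb1 and Guca1a each show it, and Pde6b shows TGCTGA close to its start and no TAATCC in the stretch shown. Capitals mark the matches (GGATTA is TAATCC on the other strand), and no stretch shown overlaps an annotated exon. A match describes letters in a window, not a bound site.
Sag promoter, chr1:87803530-87803679, plus strand: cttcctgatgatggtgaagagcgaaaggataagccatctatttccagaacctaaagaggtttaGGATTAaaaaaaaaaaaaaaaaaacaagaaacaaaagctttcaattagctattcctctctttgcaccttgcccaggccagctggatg
Cngb1 promoter, chr8:95306586-95306735, minus strand: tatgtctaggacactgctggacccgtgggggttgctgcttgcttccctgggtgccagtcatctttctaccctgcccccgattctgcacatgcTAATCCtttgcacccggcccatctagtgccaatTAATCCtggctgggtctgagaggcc
Guca1a promoter, chr17:47400607-47400756, minus strand: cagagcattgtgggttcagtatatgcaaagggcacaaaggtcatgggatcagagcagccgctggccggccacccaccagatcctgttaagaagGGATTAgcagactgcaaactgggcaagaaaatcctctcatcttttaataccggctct
Pde6b promoter, chr5:108388223-108388372, plus strand: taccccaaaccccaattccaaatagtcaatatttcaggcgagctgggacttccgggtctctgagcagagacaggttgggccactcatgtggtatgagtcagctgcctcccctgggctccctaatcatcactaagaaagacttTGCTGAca

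Most genes of the disc stack rose too. Of 16 tested outer segment genes, 13 rose and 0 fell, with a median of 2.42. Prph2, the tetraspanin that shapes the disc rim, had 3.85 and 2.16 CPM at D18 and 123, 234 and 134 CPM at D22 (log2 fold change 5.76 ± 0.54, adjusted p = 4.21e-06). Its partner Rom1 had 16.5 and 8.03 CPM at D18 and 239.8, 170.4 and 179 CPM at D22 (log2 fold change 4.0 ± 0.60, adjusted p = 0.000301). The D22 libraries lay many times above D18 for both rim proteins. Rp1, a microtubule protein of the axoneme, had 26.4 and 16.6 CPM at D18 and 409, 476 and 259 CPM at D22 (log2 fold change 4.15 ± 0.50, adjusted p = 3.55e-05). Its relative Rp1l1 had 22.8 and 13.9 CPM at D18 and 107, 135 and 119 CPM at D22 (log2 fold change 2.71 ± 0.36, adjusted p = 0.00012). D22 replicate 3 was the lowest D22 library for Rp1. Tulp1, needed for transport to the outer segment, had 68.1 and 43.6 CPM at D18 and 325, 248 and 255 CPM at D22 (log2 fold change 2.3 ± 0.43, adjusted p = 0.00164). Prom1, a membrane protein of nascent discs, had 186 and 163 CPM at D18 and 416, 499 and 338 CPM at D22 (log2 fold change 1.26 ± 0.32, adjusted p = 0.0153). Rbp3, the retinoid-binding protein of the matrix around the discs, had 259.8 and 175 CPM at D18 and 353, 432 and 556 CPM at D22 and was not called (log2 fold change 1.04 ± 0.40, adjusted p = 0.106). Abca4, the disc flippase, was not called either (log2 fold change 0.72 ± 0.32, adjusted p = 0.162). In the outer segment disc and structure list, the numbers that rose and fell were 6 and 0 without D18 replicate 2. Prph2, Rom1, Rp1 and Rp1l1 kept their calls with each of the 5 libraries left out in turn. Tulp1 lost its call without D18 replicate 2. Prom1 lost its call without D18 replicate 1 or without D18 replicate 2 or without D22 replicate 2.

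Of 32 cilium and transport genes, 7 rose and 0 fell, with a median of 0.40. Aipl1, a chaperone for phosphodiesterase, had 23.5 and 15 CPM at D18 and 192, 127 and 105 CPM at D22 (log2 fold change 2.88 ± 0.56, adjusted p = 0.00252). Rd3, which carries guanylate cyclase to the outer segment, had 10.9 and 5.4 CPM at D18 and 97.7, 48.3 and 45.5 CPM at D22 (log2 fold change 2.97 ± 0.63, adjusted p = 0.00442). The 4 genes of the ciliary gate and the BBSome coat, Ttc8, Bbs9, Bbs2 and Cep290, rose by 0.96, 1.17, 0.52 and 1.21 on the log2 scale (adjusted p = 0.0099, 0.0129, 0.0426 and 0.0365). Kif3a, a kinesin motor of cilia in many cell types, had 144 and 149 CPM at D18 and 125, 118 and 125 CPM at D22 and was not called (log2 fold change -0.25 ± 0.12, adjusted p = 0.22). In the photoreceptor cilium and transport list, the numbers that rose and fell were 3 and 0 without D18 replicate 1, 0 and 0 without D18 replicate 2 and 4 and 0 without D22 replicate 1 or D22 replicate 2. Aipl1, Rd3 and Ttc8 lost their calls without D18 replicate 2. Bbs9 lost its call without D18 replicate 1 or without D18 replicate 2 or without D22 replicate 1. Bbs2 lost its call without D18 replicate 1 or without D18 replicate 2 or without D22 replicate 1 or without D22 replicate 2 or without D22 replicate 3. Cep290 lost its call without D18 replicate 1 or without D18 replicate 2 or without D22 replicate 2.

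Transcript shares of several of these ciliary genes differed between the days. Short exons of at most 51 bases were followed in the 475 listed genes with at least 100 counts in each of the 5 libraries, as the share of a gene's spanning transcripts that hold the exon. Of 68 such exons, counted at 50 or more and found in 46 genes, 9 moved by at least 15 percentage points with no overlap between the days, 7 up and 2 down. These limits were chosen after the data were seen, and the shares come from the authors' estimated transcript counts, which carry no test here. An eye form of Arl6, and one of the BBSome gene Ttc8, is known to carry an extra short exon. The 13-base exon of Arl6 (chr16:59618666-59618678) was in 47.9% and 43.8% of counts at D18 and 78.5%, 76.7% and 74.2% at D22. A 30-base exon of Ttc8 (chr12:98937120-98937149) was in 24% and 15.1% of counts at D18 and 35.8%, 46.8% and 44.1% at D22. A 21-base exon of Cep290 (chr10:100495641-100495661) was in 35.9% and 15.9% of counts at D18 and 38%, 40.4% and 46.6% at D22. Each D22 value was above both D18 values in these 3 genes, narrowly for Cep290. Bbs9 has a 15-base exon (chr9:22648020-22648034), in 36.8% and 23.2% of counts at D18 and 52%, 45.5% and 37.7% at D22, where the days nearly met. In Prom1, 3 exons moved. An 18-base exon (chr5:44012499-44012516) was in 22.6% and 25.1% of counts at D18 and 43.6%, 47.1% and 45.6% at D22. A 27-base exon (chr5:44058626-44058652) was in 57.8% and 62.8% of counts at D18 and 74.9%, 72.7% and 79% at D22. A 24-base exon near the other end of the protein (chr5:44001270-44001293) moved down, in 44.9% and 58.4% of counts at D18 and 34.1%, 29.3% and 38.1% at D22. Unc13b, which primes synaptic vesicles and whose total was not called (log2 fold change 0.27 ± 0.29, adjusted p = 0.631), has a 33-base exon (chr4:43166668-43166700), in 19.8% and 23.4% of counts at D18 and 60.2%, 49% and 53% at D22. Transcript Unc13b-215, which holds this exon and gained share, also holds an 8367-base coding exon (chr4:43169968-43178334) that Unc13b-201 lacks. The change can therefore not be assigned to the 33-base exon alone. In Slc24a2, the cone exchanger gene, a 51-base exon was in 44.9% and 44.5% of counts at D18 and 18.7%, 15.3% and 0% at D22. At D25 the RWB libraries had 30.9%, 31.1% and 83.7%, the last above both D18 values, so this share did not stay low.

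The sequences of 6 of these exons are given as spliced in GENCODE M21 transcripts on GRCm38, with the exon in capitals and 20 bases of the neighbouring exons in lower case, in the direction of the gene. All but that of Arl6 are a multiple of 3 bases long, a length that keeps the reading frame.
Arl6 13-base exon, minus strand: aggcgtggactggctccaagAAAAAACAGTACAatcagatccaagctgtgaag
Ttc8 30-base exon, plus strand: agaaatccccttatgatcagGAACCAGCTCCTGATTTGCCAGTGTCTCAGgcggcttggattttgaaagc
Cep290 21-base exon, plus strand: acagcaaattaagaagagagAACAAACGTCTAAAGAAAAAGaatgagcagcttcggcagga
Prom1 18-base exon, minus strand: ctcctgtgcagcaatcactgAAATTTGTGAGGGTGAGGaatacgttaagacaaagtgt
Prom1 27-base exon, minus strand: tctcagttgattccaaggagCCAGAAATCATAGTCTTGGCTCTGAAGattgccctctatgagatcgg
Unc13b 33-base exon, plus strand: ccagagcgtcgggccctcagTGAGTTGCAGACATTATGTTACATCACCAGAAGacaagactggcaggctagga
The SSCd libraries, which played no part in the choice of exons, gave the same direction of group means for all 9, and 8 of the 9 had no overlap there. Lack of overlap alone says little about size. It also held in SSCd for exons of Gnb5 and Suz12 whose means differed by only -0.11 and 0.33 points. The share without overlap over all 68 exons is not given here. In SSCd, inclusion of the Arl6 exon was 53.4%, 46.6% and 47% at D18 and 81.1%, 72.1% and 71.6% at D22, and of the Ttc8 exon 14.4%, 17.5% and 17.4% at D18 and 57.3%, 63.1% and 62.9% at D22. In Slc24a2 the SSCd days overlapped, with 82%, 0% and 67.9% at D18 and 20%, 0% and 0% at D22.

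**Figure D2:**
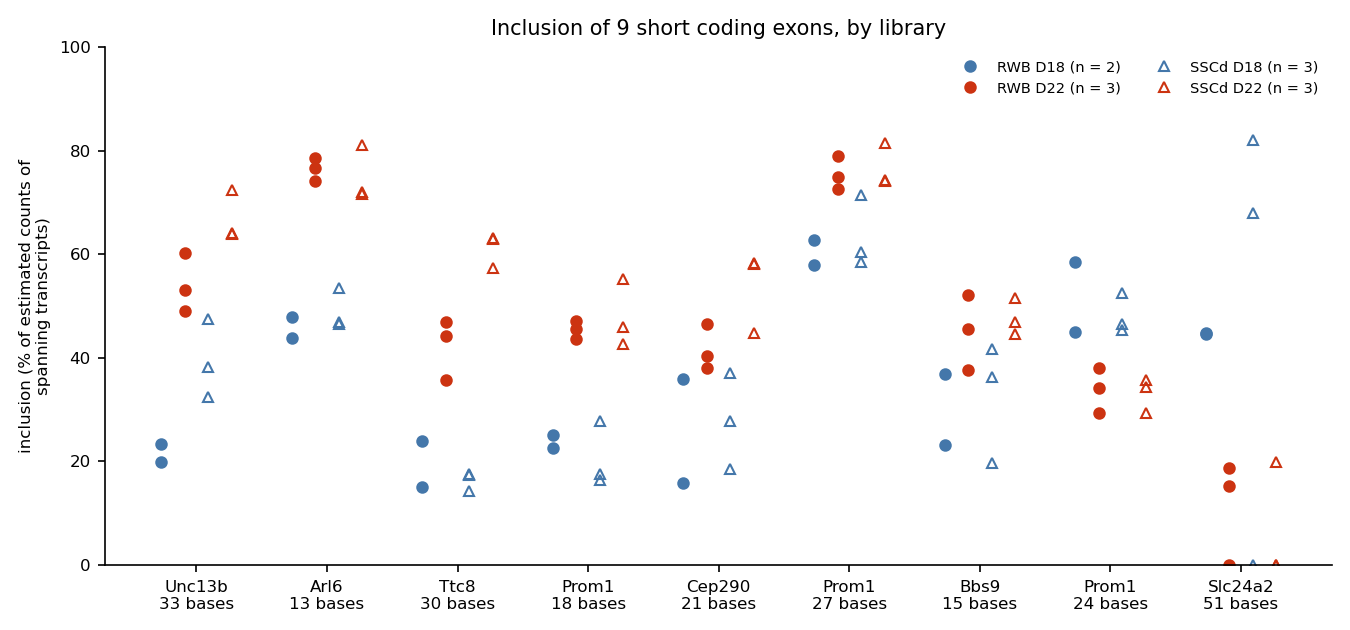
Inclusion (% of the estimated counts of transcripts that span the exon) of the 9 short exons that moved, in each RWB library (filled circles) and SSCd library (open triangles) at D18 (blue) and D22 (red). The first 7 are higher at D22 in RWB and the last 2 lower, and the Arl6 exon goes from 47.9% and 43.8% to at least 74.2%.

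Transcript shares also differed in 3 nuclear receptor genes. Of 1025 transcripts taking at least 5% of their gene, 36 transcripts of 24 genes moved by 20 points or more with no overlap. Transcript Thrb-202, which starts inside the gene, took 62% and 52.8% of the gene's counts at D18 and 15.7%, 9.61% and 19% at D22. The longer Thrb-203 took 23.1% and 32.6% of the gene's counts at D18 and 66.9%, 72.3% and 56.8% at D22. Thrb-202 was the larger form in both D18 libraries and Thrb-203 in all 3 D22 libraries. Rorb, an orphan receptor gene needed for rods, had 226 and 315 CPM at D18 and 245, 207 and 255 CPM at D22 (log2 fold change -0.20 ± 0.22, adjusted p = 0.646), and its transcript with the upstream start, Rorb-203, took 98.7% and 99.3% of the gene's counts at D18 and 72.8%, 69.4% and 88.6% at D22. Rara, a retinoic acid receptor gene, had its transcript Rara-207 at 20.8% and 9.91% of the gene's counts at D18 and 52.5%, 39.4% and 50% at D22. In SSCd the days overlapped for it (21.4%, 14.9% and 35% of the gene's counts at D18 and 28.2%, 36% and 33.8% at D22). Thrb-203 in SSCd took 9.33%, 7.29% and 7.01% of the gene's counts at D18 and 69.6%, 55.1% and 54.3% at D22, and Rorb-203 took 91.6%, 99.3% and 98% of the gene's counts at D18 and 62.7%, 67.6% and 72.4% at D22.

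Presynaptic genes rose broadly: of 30 tested, 19 rose and 0 fell, with a median of 1.43, and 26 had every D22 library above both D18 libraries. Of all genes tested, 6.01% rose and 19.9% were above in this way. Rims1, a scaffold of the active zone, had 7.1 and 4.45 CPM at D18 and 96.7, 43.5 and 71.8 CPM at D22 (log2 fold change 3.61 ± 0.38, adjusted p = 1.1e-05). Slc17a7, the transporter that fills vesicles with glutamate, had 14.1 and 8.7 CPM at D18 and 112, 94.2 and 75.2 CPM at D22 (log2 fold change 3.04 ± 0.43, adjusted p = 0.000167). Cacna1f, the pore of the calcium channel at photoreceptor ribbons, had 1.79 and 2.7 CPM at D18 and 16.7, 26.5 and 22.7 CPM at D22 (log2 fold change 3.29 ± 0.46, adjusted p = 0.000171), and its accessory subunit gene Cacna2d4 had 8.37 and 8.84 CPM at D18 and 20.9, 26.7 and 26.5 CPM at D22 (log2 fold change 1.52 ± 0.25, adjusted p = 0.000641). For these genes the days were well apart. Stx3, the syntaxin of ribbon synapses, had 49.7 and 55.9 CPM at D18 and 457, 384 and 266 CPM at D22 (log2 fold change 2.81 ± 0.42, adjusted p = 0.000279). Cplx4, a complexin of photoreceptor terminals, had 0.398 and 0.607 CPM at D18 and 5.64, 5.11 and 3.99 CPM at D22 (log2 fold change 3.27 ± 0.56, adjusted p = 0.000995). Lrit1, a leucine-rich membrane protein of photoreceptor terminals, had 12.9 and 11.1 CPM at D18 and 95.4, 84.8 and 62.2 CPM at D22 (log2 fold change 2.75 ± 0.44, adjusted p = 0.000527). Syt1, the calcium sensor shared by most neurons, rose less, with 143 and 149 CPM at D18 and 430.2, 382 and 381 CPM at D22 (log2 fold change 1.44 ± 0.19, adjusted p = 8.16e-05). Ctbp2, whose locus also makes the ribbon protein RIBEYE, had 169 and 123 CPM at D18 and 273, 208 and 199 CPM at D22, with no overlap, and was not called (log2 fold change 0.64 ± 0.21, adjusted p = 0.0625). Pclo, a large scaffold found at many synapses, had 125 and 125 CPM at D18 and 135, 151 and 179 CPM at D22 and was not called (log2 fold change 0.31 ± 0.19, adjusted p = 0.332). TAATCC lay in 21.9% of the 32 promoter windows of this list. In the ribbon synapse and presynaptic release list, the numbers that rose and fell were 10 and 0 without D18 replicate 2. Rims1, Slc17a7, Cacna1f, Cacna2d4, Stx3, Cplx4, Lrit1 and Syt1 kept their calls with each of the 5 libraries left out in turn.

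More cone genes rose than fell. Of 16 tested, 8 rose and 1 fell, with a median of 0.95. With any 1 of the D22 libraries left out, 7 rose and 0 fell. Opn1sw, the short-wavelength opsin gene, had 8.83 and 5.67 CPM at D18 and 73.1, 166 and 89.4 CPM at D22 (log2 fold change 3.92 ± 0.63, adjusted p = 0.000528). Gngt2, the gamma subunit of cone transducin, had 237 and 132 CPM at D18 and 1471, 642 and 589 CPM at D22 (log2 fold change 2.29 ± 0.57, adjusted p = 0.0133). Gnb3, the beta subunit shared with bipolar cells, had 351 and 225 CPM at D18 and 1041, 993 and 779 CPM at D22 (log2 fold change 1.7 ± 0.25, adjusted p = 0.000301). D22 replicate 1 was much the highest for Gngt2 and replicate 2 for Opn1sw. Pde6h, the inhibitory subunit of cone phosphodiesterase, had 3.52 and 1.15 CPM at D18 and 17.8, 28.7 and 11.3 CPM at D22 (log2 fold change 3.04 ± 0.72, adjusted p = 0.00951). Arr3, cone arrestin, stayed low, with 1.06 and 0.81 CPM at D18 and 5.79, 7.82 and 4.99 CPM at D22 (log2 fold change 2.72 ± 0.48, adjusted p = 0.00124). Grk1, the opsin kinase that mouse rods and cones share, had 6.64 and 12.7 CPM at D18 and 29, 38 and 47.2 CPM at D22 (log2 fold change 1.98 ± 0.52, adjusted p = 0.0164). All D22 values of these 3 genes were above both D18 values. Gnat2, the cone transducin alpha subunit, had 84 and 49.7 CPM at D18 and 163, 175 and 78.7 CPM at D22 and was not called (log2 fold change 1.06 ± 0.50, adjusted p = 0.195). Pde6c, the cone phosphodiesterase, had 41.6 and 58 CPM at D18 and 58.2, 37.5 and 40.6 CPM at D22 (log2 fold change -0.13 ± 0.51, adjusted p = 0.914). In both the days overlapped. Opn1mw, the middle-wavelength opsin gene, was under 1 CPM in all 5 libraries. In the cone phototransduction list, the numbers that rose and fell were 3 and 0 without D18 replicate 2. Opn1sw and Gnb3 kept their calls with each of the 5 libraries left out in turn. Gngt2 lost its call without D18 replicate 2 or without D22 replicate 1. Pde6h and Arr3 lost their calls without D18 replicate 2. Grk1 lost its call without D18 replicate 1 or without D18 replicate 2.

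Bipolar and amacrine genes rose more often than they fell. Of 27 bipolar genes, 9 rose and 3 fell, with a median of 0.71. Pcp2, a G-protein regulator of bipolar cells, had 12.3 and 4.39 CPM at D18 and 153, 69.6 and 51.5 CPM at D22 (log2 fold change 3.45 ± 0.47, adjusted p = 0.000145). Car8, a carbonic anhydrase relative found in bipolar cells, had 0.664 and 0.877 CPM at D18 and 11.7, 8.62 and 5.92 CPM at D22 (log2 fold change 3.49 ± 0.46, adjusted p = 0.000112). Prkca, the kinase that marks rod bipolar cells, had 49.3 and 48.6 CPM at D18 and 85.4, 78.4 and 88 CPM at D22 (log2 fold change 0.78 ± 0.19, adjusted p = 0.0129). Every D22 library was above D18 for these 3. Trpm1, the channel of ON bipolar dendrites, fell, with 23 and 74.3 CPM at D18 and 7.54, 5.91 and 14 CPM at D22 (log2 fold change -2.41 ± 0.70, adjusted p = 0.0303). Isl1, used by ganglion, bipolar and amacrine cells, also fell (log2 fold change -1.57 ± 0.33, adjusted p = 0.00392). Grm6, a metabotropic glutamate receptor gene of ON bipolar dendrites, had 3 or fewer counts in each D18 library and 0.229, 0.246 and 0.686 CPM at D22. Trpm1 also marks pigment cells, and its 2 D18 values stood in the same order as those of the pigment genes Pmel and Dct. Pmel had 24.8 and 93.6 CPM at D18 and 3.81, 1.6 and 14.8 CPM at D22 (log2 fold change -3.13 ± 1.03, adjusted p = 0.0584), and Dct had 19.4 and 86 CPM at D18 and 34.5, 26.2 and 64.7 CPM at D22, with overlap (log2 fold change -0.33 ± 0.79, adjusted p = 0.853). The part of pigment cells in the Trpm1 result was not tested. In the bipolar cells list, the numbers that rose and fell were 3 and 0 without D18 replicate 2. Pcp2 and Car8 kept their calls with each of the 5 libraries left out in turn. Prkca lost its call without D18 replicate 1 or without D18 replicate 2. Trpm1 lost its call without D18 replicate 2 or without D22 replicate 1 or without D22 replicate 2. Isl1 lost its call without D18 replicate 2.

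Among 26 amacrine genes, 8 rose and 2 fell, with a median of 0.66. Gad1, which makes the transmitter GABA, had 20.1 and 15.1 CPM at D18 and 111, 97.9 and 136 CPM at D22 (log2 fold change 2.71 ± 0.37, adjusted p = 0.00016). Calb2, a calcium buffer of amacrine cells, had 11.3 and 15.7 CPM at D18 and 173, 117 and 121 CPM at D22 (log2 fold change 3.34 ± 0.37, adjusted p = 1.51e-05). Gjd2, the connexin of electrical synapses, had 2.92 and 2.77 CPM at D18 and 24.2, 22.8 and 21.2 CPM at D22 (log2 fold change 2.99 ± 0.28, adjusted p = 4.21e-06), and its D22 libraries were close together. Chat and Slc18a3, the pair of genes that mark starburst cells, were low, with 0.465 and 0.202 CPM at D18 and 5.94, 3.02 and 4.3 CPM at D22 (log2 fold change 3.69 ± 0.98, adjusted p = 0.0179) for Chat. Both were above D18 in each D22 library. Ebf3 fell, with 77 and 153 CPM at D18 and 23.1, 27.4 and 33.7 CPM at D22 (log2 fold change -2.03 ± 0.34, adjusted p = 0.000694). Pax6, shared by progenitors and inner neurons, had 607 and 699 CPM at D18 and 562, 652 and 683 CPM at D22, which overlapped (log2 fold change -0.05 ± 0.28, adjusted p = 0.945). Of 15 horizontal cell genes, 4 rose and 3 fell, with a median of -0.15. Calb1 and Nefh, genes of maturing horizontal cells, rose by 2.53 and 2.88 (adjusted p = 0.000427 and 1.2e-05), while Onecut2, an early factor, had 63.1 and 98.6 CPM at D18 and 31.5, 31.4 and 44.5 CPM at D22 (log2 fold change -1.18 ± 0.24, adjusted p = 0.00377). Prox1 had 82.7 and 86.5 CPM at D18 and 44.5, 54.1 and 62.6 CPM at D22, lower in every D22 library, and was not called (log2 fold change -0.65 ± 0.31, adjusted p = 0.194). In the amacrine cells list, the numbers that rose and fell were 3 and 2 without D18 replicate 2. In the horizontal cells list, the numbers that rose and fell were 2 and 1 without D18 replicate 2. Gad1, Calb2, Gjd2, Ebf3, Calb1 and Nefh kept their calls with each of the 5 libraries left out in turn. Chat lost its call without D18 replicate 1 or without D18 replicate 2 or without D22 replicate 1. Onecut2 lost its call without D18 replicate 2.

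Ganglion cell genes fell: of 30 tested, 0 rose and 14 fell, with a median of -1.32, and 22 had every D22 library below both D18 libraries. Of all genes tested, 4.88% fell and 20% were below in this way. Atoh7, the basic helix-loop-helix factor required for ganglion cells, had 446 and 494 CPM at D18 and 25.9, 55.6 and 22.4 CPM at D22 (log2 fold change -3.76 ± 0.45, adjusted p = 3.55e-05). Pou4f2, the factor that follows it, had 33.5 and 61.6 CPM at D18 and 0.762, 3.63 and 2.43 CPM at D22 (log2 fold change -4.37 ± 0.69, adjusted p = 0.000446). Cntn2, an axonal adhesion protein, had 189 and 398 CPM at D18 and 9.6, 26.7 and 15.5 CPM at D22 (log2 fold change -4.08 ± 0.54, adjusted p = 0.000117). D18 replicate 2 was the higher D18 library for all 3, and D22 lay far below both. Sox11, a factor of young neurons, had 283 and 367 CPM at D18 and 91.2, 120.1 and 134 CPM at D22 (log2 fold change -1.5 ± 0.25, adjusted p = 0.000686). Gap43, a growth cone protein, had 151 and 254 CPM at D18 and 78.9, 78.3 and 63.1 CPM at D22 (log2 fold change -1.47 ± 0.26, adjusted p = 0.00116). Nefl, the light neurofilament subunit, had 76.4 and 156 CPM at D18 and 50.7, 45.2 and 42.6 CPM at D22 (log2 fold change -1.33 ± 0.25, adjusted p = 0.00171). For Sox4, a close relative of Sox11, the values were 567 and 498 CPM at D18 and 433, 571 and 482 CPM at D22, with overlap (log2 fold change -0.10 ± 0.21, adjusted p = 0.82). Tubb3, a tubulin of all young neurons, had 626 and 591 CPM at D18 and 383, 283 and 295 CPM at D22, lower in each D22 library but not called (log2 fold change -0.93 ± 0.31, adjusted p = 0.0593). In the ganglion cells list, the numbers that rose and fell were 0 and 5 without D18 replicate 2. Atoh7, Pou4f2, Cntn2 and Sox11 kept their calls with each of the 5 libraries left out in turn. Gap43 and Nefl lost their calls without D18 replicate 2.

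Progenitor factors fell as well. Of 31 tested, 1 rose and 12 fell, with a median of -0.93. Fgf15, a growth factor made by progenitors, had 310.1 and 422 CPM at D18 and 20.4, 17.9 and 24.3 CPM at D22 (log2 fold change -4.13 ± 0.56, adjusted p = 0.000139). Sfrp2, a secreted Wnt regulator, had 89.9 and 147 CPM at D18 and 16.2, 22.5 and 10.2 CPM at D22 (log2 fold change -2.86 ± 0.52, adjusted p = 0.00139). Sox2, a factor of neural stem cells, had 62.5 and 55.7 CPM at D18 and 28, 29.1 and 31 CPM at D22 (log2 fold change -1.01 ± 0.21, adjusted p = 0.00385). The days were apart in each. Nr2e1 and Zic2 fell by 1.52 and 1.05 on the log2 scale (adjusted p = 0.00633 and 0.00155). Meis2, which progenitors share with amacrine cells, was the 1 member that rose (log2 fold change 1.33 ± 0.27, adjusted p = 0.0033). Six3 had 133 and 170.4 CPM at D18 and 65.1, 82.5 and 127 CPM at D22 and was not called (log2 fold change -0.73 ± 0.31, adjusted p = 0.141). Of 33 genes of the neurogenic and Notch list, 0 rose and 8 fell. Notch signalling keeps progenitors dividing, and its DNA-binding partner Rbpj had 184 and 252 CPM at D18 and 110.4, 121 and 116 CPM at D22 (log2 fold change -0.91 ± 0.17, adjusted p = 0.00157), and its target Hes1 had 30.5 and 35.3 CPM at D18 and 14.1, 13.3 and 20.4 CPM at D22 (log2 fold change -1.04 ± 0.28, adjusted p = 0.0208). Neurog2, a proneural factor, had 138 and 102 CPM at D18 and 70.2, 63.6 and 67.5 CPM at D22 (log2 fold change -0.84 ± 0.22, adjusted p = 0.0161). Neurod4, used by bipolar cells and young photoreceptors, had 566 and 524 CPM at D18 and 892, 1138 and 545 CPM at D22, which overlapped (log2 fold change 0.66 ± 0.32, adjusted p = 0.208). In the retinal progenitor factors list, the numbers that rose and fell were 1 and 7 without D18 replicate 1 and 0 and 5 without D18 replicate 2. In the neurogenic bHLH factors and Notch pathway list, the numbers that rose and fell were 0 and 4 without D18 replicate 1 or D18 replicate 2 or D22 replicate 2 and 0 and 5 without D22 replicate 1. Fgf15, Sfrp2, Sox2 and Zic2 kept their calls with each of the 5 libraries left out in turn. Nr2e1, Meis2 and Rbpj lost their calls without D18 replicate 2. Hes1 lost its call without D18 replicate 1 or without D18 replicate 2 or without D22 replicate 1 or without D22 replicate 2. Neurog2 lost its call without D18 replicate 1 or without D22 replicate 2.

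Müller glia genes were mixed. Of 29 tested, 5 rose and 4 fell, with a median of 0.22. Rlbp1, a retinoid-binding protein, had 19.6 and 14.8 CPM at D18 and 67.4, 109.7 and 83.9 CPM at D22 (log2 fold change 2.34 ± 0.31, adjusted p = 0.000104). Slc1a3, the glial glutamate transporter, had 30.9 and 22.5 CPM at D18 and 63.2, 68.1 and 131 CPM at D22 (log2 fold change 1.71 ± 0.38, adjusted p = 0.00596). Crym, a thyroid hormone binding protein, had 23.2 and 31.8 CPM at D18 and 164, 195 and 189 CPM at D22 (log2 fold change 2.73 ± 0.27, adjusted p = 5.28e-06). Slc1a3 was highest in D22 replicate 3. Vim, an intermediate filament gene, had 451 and 595 CPM at D18 and 207, 249 and 291 CPM at D22 (log2 fold change -1.07 ± 0.30, adjusted p = 0.0262), and Dkk3, a secreted protein, fell by 0.79 (adjusted p = 0.00929). Glul, glutamine synthetase, had 246 and 321 CPM at D18 and 242, 229.6 and 288 CPM at D22, with overlap (log2 fold change -0.16 ± 0.19, adjusted p = 0.666). Gfap, a filament of stressed glia and astrocytes, had 1.46 and 0.405 CPM at D18 and 9.29, 2.09 and 16.6 CPM at D22 and was not called (log2 fold change 3.31 ± 1.06, adjusted p = 0.0513). In the Müller glia list, the numbers that rose and fell were 3 and 1 without D18 replicate 2. Rlbp1 and Crym kept their calls with each of the 5 libraries left out in turn. Slc1a3 and Dkk3 lost their calls without D18 replicate 2. Vim lost its call without D18 replicate 2 or without D22 replicate 1 or without D22 replicate 2.

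Genes of the cell cycle fell together. Of 42 DNA replication genes, 0 rose and 29 fell, with a median of -1.12, and all 42 had every D22 library below both D18 libraries. Of 43 mitosis genes, 0 rose and 29 fell, with a median of -1.16, and 41 did not overlap. Of all genes tested, 4.88% fell and 20% had every D22 library below both D18 libraries. Mcm4, a subunit of the replicative helicase, had 111 and 142 CPM at D18 and 40.7, 46.9 and 42.8 CPM at D22 (log2 fold change -1.54 ± 0.22, adjusted p = 0.000233). Chaf1a, which loads histones on new DNA, had 64.7 and 63.9 CPM at D18 and 15.1, 20.3 and 23.7 CPM at D22 (log2 fold change -1.7 ± 0.30, adjusted p = 0.00122). Pole, a replicative polymerase, had 46.3 and 73.5 CPM at D18 and 12, 17 and 23.3 CPM at D22 (log2 fold change -1.78 ± 0.34, adjusted p = 0.00231). Each D22 value was under the lower D18 value by a wide margin. Pcna, the polymerase clamp, had 437 and 306 CPM at D18 and 213, 239 and 134 CPM at D22 and was not called (log2 fold change -0.93 ± 0.34, adjusted p = 0.082). Mki67, a coat protein of mitotic chromosomes, had 740.5 and 719 CPM at D18 and 189.9, 326 and 324 CPM at D22 (log2 fold change -1.38 ± 0.41, adjusted p = 0.0343). Ect2, needed for cytokinesis, had 127 and 121 CPM at D18 and 52.4, 57.9 and 48.4 CPM at D22 (log2 fold change -1.23 ± 0.22, adjusted p = 0.00114). Tpx2, a spindle protein, had 217 and 237 CPM at D18 and 91.7, 89.9 and 90.8 CPM at D22 (log2 fold change -1.32 ± 0.25, adjusted p = 0.00231), and its 3 D22 values were nearly equal. Kif11, the kinesin that separates spindle poles, had 91.5 and 96.3 CPM at D18 and 32, 37.6 and 33.5 CPM at D22 (log2 fold change -1.45 ± 0.33, adjusted p = 0.00718). Cdk1, the kinase that starts mitosis, had 258 and 161 CPM at D18 and 119, 126 and 79.5 CPM at D22 and was not called (log2 fold change -0.95 ± 0.41, adjusted p = 0.153), with D22 below D18 throughout. In the DNA replication list, the numbers that rose and fell were 0 and 16 without D18 replicate 1, 0 and 9 without D18 replicate 2 and 0 and 19 without D22 replicate 3. In the mitosis and spindle list, the numbers that rose and fell were 0 and 9 without D18 replicate 1, 0 and 6 without D18 replicate 2, 0 and 13 without D22 replicate 1, 0 and 19 without D22 replicate 2 and 0 and 18 without D22 replicate 3. Mcm4, Chaf1a, Ect2 and Tpx2 kept their calls with each of the 5 libraries left out in turn. Pole and Kif11 lost their calls without D18 replicate 2. Mki67 lost its call without D18 replicate 1 or without D18 replicate 2 or without D22 replicate 1 or without D22 replicate 2 or without D22 replicate 3.

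Of 28 genes of the entry into the cycle and its brakes, 0 rose and 10 fell. Ccnd1, the D cyclin of retinal progenitors, had 761 and 770.1 CPM at D18 and 197, 183 and 248 CPM at D22 (log2 fold change -1.87 ± 0.22, adjusted p = 3.55e-05), and Cdk2 had 67.9 and 81.8 CPM at D18 and 21.6, 30.6 and 27.4 CPM at D22 (log2 fold change -1.5 ± 0.23, adjusted p = 0.000441). Cdkn1b, an inhibitor of the cycle, had 147 and 107 CPM at D18 and 172, 162 and 126 CPM at D22, with overlap (log2 fold change 0.27 ± 0.27, adjusted p = 0.591). In the G1 cyclins and brakes list, the numbers that rose and fell were 0 and 6 without D18 replicate 1 and 0 and 4 without D18 replicate 2. Ccnd1 and Cdk2 kept their calls with each of the 5 libraries left out in turn.

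Promoters of the cell cycle lists were searched in the same windows, on both strands. TTTGAA, the cell cycle homology region, lay in 76.3% of the 38 mitosis windows, in 10.5% of the 38 replication windows and in 12.6% of all windows. TTCCCGC, an E2F element, lay in 42.1% of the replication windows, in 0% of the mitosis windows and in 7.50% of all windows. CCAAT, the NF-Y box, lay in 78.9% of mitosis windows, 57.9% of replication windows and 37.5% of all windows. CCAAT was above its share of all windows in both lists. Among the 816 windows of all genes that fell, TTTGAA lay in 19.7% and TTCCCGC in 14.5%. Top2a, a topoisomerase, and Cdc6, a replication licensing factor, were called too (log2 fold change -1.25 ± 0.36, adjusted p = 0.0307 and log2 fold change -1.68 ± 0.45, adjusted p = 0.0199) and were picked for their windows. Top2a lost its call without D18 replicate 1 or without D18 replicate 2 or without D22 replicate 1 or without D22 replicate 3. Cdc6 lost its call without D18 replicate 1 or without D18 replicate 2 or without D22 replicate 1. Stretches of Kif11, Top2a and Mki67 show TTTGAA beside CCAAT, and those of Chaf1a and Cdc6 show TTCCCGC, with matches in capitals on either strand and no annotated exon in them.
Kif11 promoter, chr19:37376232-37376381, plus strand: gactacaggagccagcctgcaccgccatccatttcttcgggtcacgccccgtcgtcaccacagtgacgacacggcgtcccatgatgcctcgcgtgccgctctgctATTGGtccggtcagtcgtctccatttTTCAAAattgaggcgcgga
Top2a promoter, chr11:99024190-99024339, minus strand: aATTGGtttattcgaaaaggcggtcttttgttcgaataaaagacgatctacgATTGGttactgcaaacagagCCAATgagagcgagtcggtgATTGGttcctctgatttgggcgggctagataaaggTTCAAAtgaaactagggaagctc
Mki67 promoter, chr7:135716380-135716529, minus strand: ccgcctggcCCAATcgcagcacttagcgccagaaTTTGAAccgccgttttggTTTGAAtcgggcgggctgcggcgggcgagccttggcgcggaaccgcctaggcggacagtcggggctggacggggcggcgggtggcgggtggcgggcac
Chaf1a promoter, chr17:56040266-56040415, plus strand: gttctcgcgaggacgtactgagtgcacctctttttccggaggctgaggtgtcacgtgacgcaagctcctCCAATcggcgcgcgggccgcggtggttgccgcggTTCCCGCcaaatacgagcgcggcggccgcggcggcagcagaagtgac
Cdc6 promoter, chr11:98908001-98908150, plus strand: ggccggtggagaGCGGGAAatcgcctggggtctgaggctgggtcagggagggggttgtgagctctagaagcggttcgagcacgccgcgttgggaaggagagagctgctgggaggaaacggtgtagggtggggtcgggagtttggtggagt

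**Figure D3:**
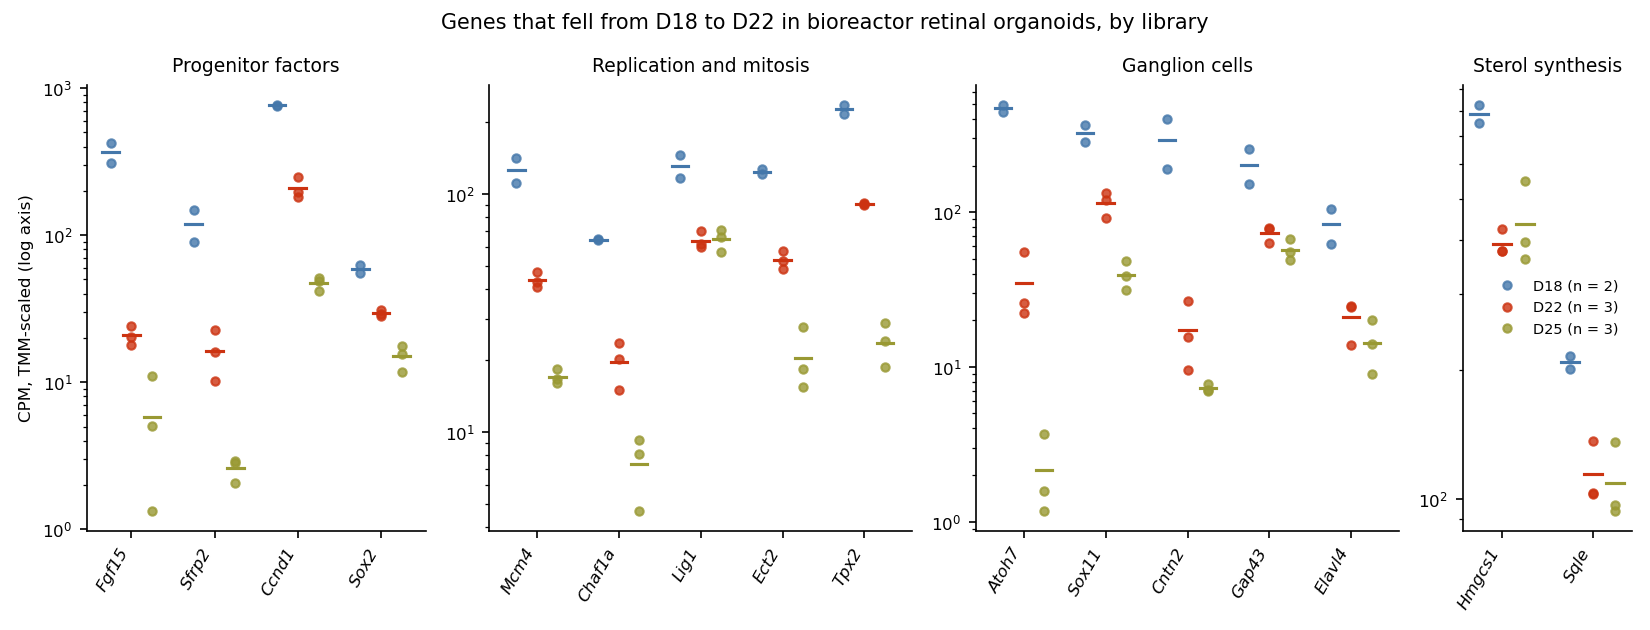
TMM-scaled CPM (log axis) of 16 genes in each RWB library at D18 (2 libraries), D22 (3) and D25 (3); points are libraries and short lines are group means. Each gene is lower at D22 than at D18 in every library, and most progenitor, cycle and ganglion cell genes are lower again at D25, while Lig1 and the sterol genes are not.

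Some chromatin genes fell. Of 30 chromatin and DNA methylation genes, 1 rose and 7 fell, with a median of -0.33. Uhrf1, which brings the maintenance methylase to new DNA, had 174 and 206 CPM at D18 and 34.1, 47.9 and 59.3 CPM at D22 (log2 fold change -2.01 ± 0.42, adjusted p = 0.00438). Dnmt3b, a methylase of early embryos, had 25.9 and 33.8 CPM at D18 and 5.18, 6.71 and 10.5 CPM at D22 (log2 fold change -1.99 ± 0.39, adjusted p = 0.00282). Lmnb1 and Lbr, of the nuclear lamina and of the inner membrane that holds peripheral heterochromatin, fell by 1.0 and 0.82 (adjusted p = 0.0041 and 0.00549). Rod nuclei of mice are known for losing that tether as they invert. Lbr had 107 and 100.3 CPM at D18 and 58.8, 59.4 and 57.6 CPM at D22, and its D22 libraries were almost equal. Hdac9, a deacetylase of neurons, was the 1 gene that rose (log2 fold change 0.87 ± 0.20, adjusted p = 0.00755). Of 29 neural splicing and RNA regulators, 2 rose and 5 fell (6.9% and 17.2%, against 6.01% and 4.88% of all genes). Igf2bp2, an RNA-binding protein, had 46.1 and 52.9 CPM at D18 and 13.6, 11.1 and 16.9 CPM at D22 (log2 fold change -1.84 ± 0.18, adjusted p = 6.47e-06), Igf2bp1 had 88 and 94.2 CPM at D18 and 15.6, 15.3 and 34.7 CPM at D22 (log2 fold change -2.06 ± 0.46, adjusted p = 0.00621), and Lin28b, which blocks let-7 maturation, had 6.24 and 9.31 CPM at D18 and 1.07, 1.66 and 2.68 CPM at D22 (log2 fold change -2.1 ± 0.49, adjusted p = 0.00842). Rbfox1, a splicing regulator of mature neurons, had 11.7 and 5.87 CPM at D18 and 32.4, 27 and 32.5 CPM at D22 (log2 fold change 1.8 ± 0.40, adjusted p = 0.00563). In the chromatin and DNA methylation enzymes list, the numbers that rose and fell were 1 and 3 without D18 replicate 1 and 0 and 3 without D18 replicate 2. In the neural splicing and RNA regulators list, the numbers that rose and fell were 0 and 2 without D18 replicate 2. Igf2bp2 kept its call with each of the 5 libraries left out in turn. Uhrf1, Dnmt3b, Igf2bp1, Lin28b and Rbfox1 lost their calls without D18 replicate 2. Lmnb1 and Lbr lost their calls without D18 replicate 1. Hdac9 lost its call without D18 replicate 1 or without D18 replicate 2.

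**Figure D4:**
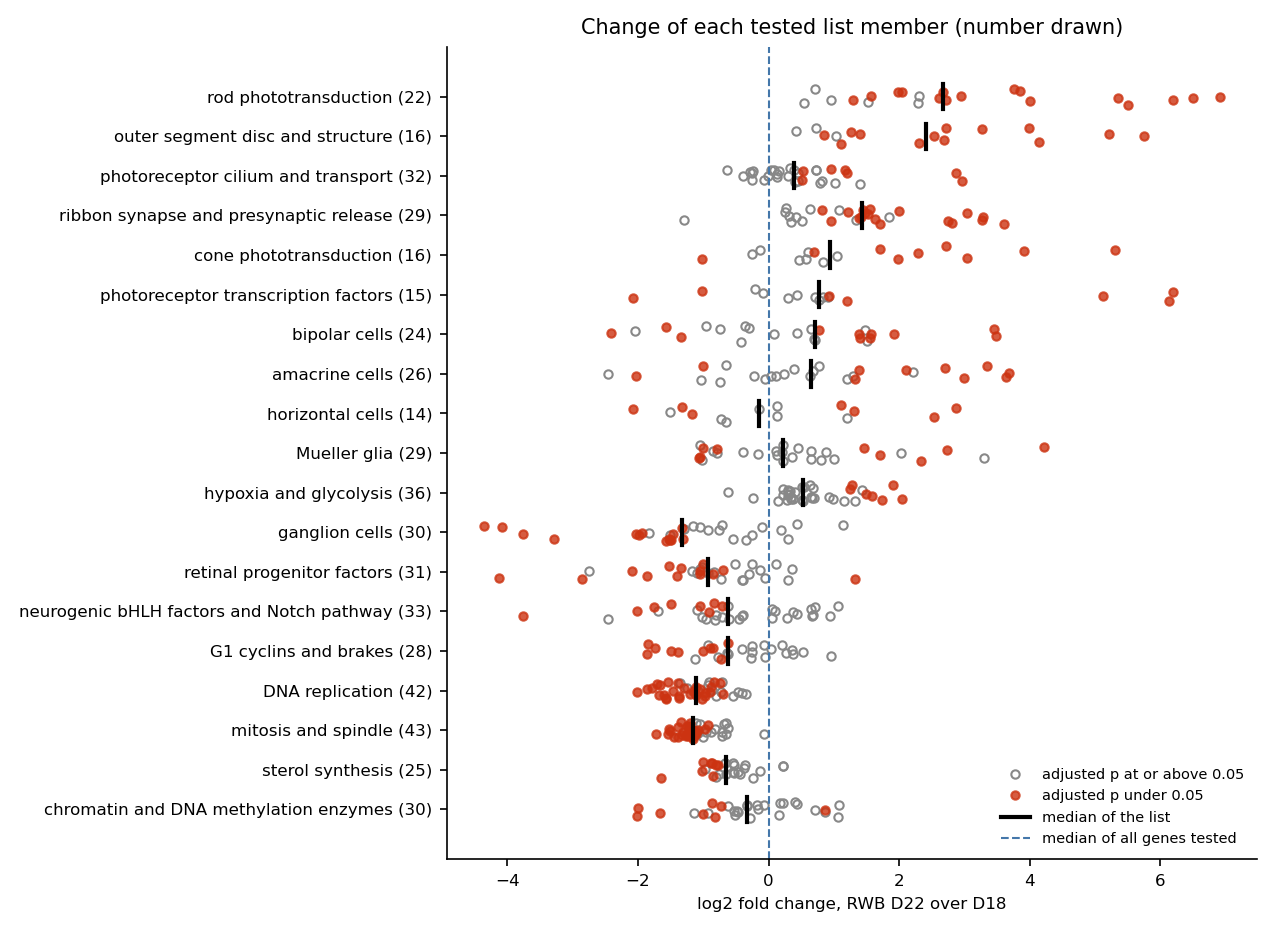
Log2 fold change (RWB D22 over D18) of each drawn member of 19 gene lists; filled red points passed the test, open points did not, black bars are list medians and the dashed line is the median of all genes tested (0.01). Rod, disc and synapse lists lie to the right and cycle, progenitor and ganglion cell lists to the left; members with 3 or fewer counts in every library of a day are not drawn.

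Several glycolytic genes rose. Of 36 hypoxia and glycolysis genes, 7 rose and 0 fell, with a median of 0.53. Ldha, the lactate dehydrogenase that photoreceptors use in aerobic glycolysis, had 1016 and 549.6 CPM at D18 and 3167, 2489 and 2213 CPM at D22 (log2 fold change 1.74 ± 0.33, adjusted p = 0.00213). Eno2, the enolase of neurons, had 43.2 and 35.2 CPM at D18 and 189, 147 and 148 CPM at D22 (log2 fold change 2.04 ± 0.23, adjusted p = 2.46e-05). Hk1, a hexokinase, had 50.3 and 53 CPM at D18 and 128, 104 and 134 CPM at D22 (log2 fold change 1.24 ± 0.25, adjusted p = 0.00368). Aldoa and Aldoc, aldolases, rose by 1.27 and 1.9 (adjusted p = 0.00577 and 0.00368). The days did not overlap in these 5 genes. Gapdh, a core enzyme, had 1758 and 1275 CPM at D18 and 1642, 1971 and 1963 CPM at D22, with overlap (log2 fold change 0.29 ± 0.25, adjusted p = 0.526). Bnip3, a hypoxia target, rose with an adjusted p near the threshold (log2 fold change 1.58 ± 0.51, adjusted p = 0.049). In the hypoxia and glycolysis list, the numbers that rose and fell were 1 and 0 without D18 replicate 2. Eno2 kept its call with each of the 5 libraries left out in turn. Ldha, Hk1, Aldoa and Aldoc lost their calls without D18 replicate 2. Bnip3 lost its call without D18 replicate 2 or without D22 replicate 1 or without D22 replicate 2 or without D22 replicate 3.

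Several sterol genes fell. Of 25 tested, 0 rose and 8 fell, with a median of -0.66. Hmgcs1, the synthase at the start of the pathway, had 748 and 826 CPM at D18 and 425, 377 and 377 CPM at D22 (log2 fold change -1.0 ± 0.20, adjusted p = 0.00313). Each D22 library was below both D18 libraries. Srebf2, the factor that drives these genes, had 389 and 269 CPM at D18 and 206, 222 and 258 CPM at D22 and was not called (log2 fold change -0.53 ± 0.33, adjusted p = 0.356). Of 20 retinoic acid genes, 1 rose and 4 fell (5.0% and 20.0%, against 6.01% and 4.88% of all genes). Crabp2, a carrier of retinoic acid to the nucleus, had 170.0 and 109.7 CPM at D18 and 23.8, 29.6 and 24.1 CPM at D22 (log2 fold change -2.43 ± 0.40, adjusted p = 0.000641). Aldh1a3, a synthetic enzyme of the ventral retina, had 15.7 and 22.7 CPM at D18 and 2.59, 3.88 and 7.42 CPM at D22 (log2 fold change -2.05 ± 0.52, adjusted p = 0.0136). The other carrier, Crabp1, rose, with 96.1 and 76 CPM at D18 and 231, 195 and 121 CPM at D22 (log2 fold change 1.08 ± 0.25, adjusted p = 0.00892). Cpt1a, which admits fatty acids to mitochondria, had 108 and 193 CPM at D18 and 26.5, 33.4 and 32.1 CPM at D22 (log2 fold change -2.3 ± 0.33, adjusted p = 0.000224). In the sterol synthesis list, the numbers that rose and fell were 0 and 5 without D18 replicate 1 or D22 replicate 1 and 0 and 2 without D18 replicate 2. In the retinoic acid list, the numbers that rose and fell were 1 and 2 without D18 replicate 1 or D22 replicate 2 and 0 and 1 without D18 replicate 2 or D22 replicate 1. Crabp2 and Cpt1a kept their calls with each of the 5 libraries left out in turn. Hmgcs1 lost its call without D18 replicate 2. Aldh1a3 lost its call without D18 replicate 2 or without D22 replicate 1 or without D22 replicate 2. Crabp1 lost its call without D18 replicate 2 or without D22 replicate 1.

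Some immediate early and heat shock genes rose, and most were not called. Of 27 tested, 5 rose, 0 fell and 22 were not called. Their summed CPM was 4903 and 4109 at D18 and 5322, 5005 and 5096 at D22. Nr4a1, an immediate early receptor, had 4.65 and 3.51 CPM at D18 and 19, 20.7 and 25.6 CPM at D22 (log2 fold change 2.42 ± 0.33, adjusted p = 0.000154). Npas4, a factor induced by neuronal activity, had 0.531 and 0.202 CPM at D18 and 6.78, 5.72 and 11.4 CPM at D22 (log2 fold change 4.41 ± 0.93, adjusted p = 0.0043). Both were higher in every D22 library. The 2 heat shock genes called were high in 1 library: Hspa1a had 2.92 and 0.607 CPM at D18 and 1.98, 2.83 and 105 CPM at D22 (log2 fold change 4.36 ± 1.37, adjusted p = 0.0464), and Hspa1b had 0.797 and 1.69 CPM at D18 and 3.5, 5.17 and 78.9 CPM at D22 (log2 fold change 4.55 ± 1.01, adjusted p = 0.00612). Reads of these near-identical copies can be split between them. The other 2 D22 libraries stood close to D18 for Hspa1a. In the immediate early and heat shock list, the numbers that rose and fell were 3 and 0 without D18 replicate 1 and 1 and 0 without D18 replicate 2. Nr4a1 kept its call with each of the 5 libraries left out in turn. Npas4 lost its call without D18 replicate 2. Hspa1a lost its call without D18 replicate 1 or without D18 replicate 2 or without D22 replicate 3. Hspa1b lost its call without D18 replicate 1 or without D18 replicate 2.

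Marker lists of other tissue differed in how their sums stood between the days. The summed CPM of 17 pigment epithelium genes was 644 and 1049 at D18 and 1117, 692 and 946 at D22, and of them Rlbp1 rose and Trpm3 fell (log2 fold change -0.93 ± 0.22, adjusted p = 0.00878). The sum of 20 genes of forebrain and other neural tissue was 181 and 238 CPM at D18 and 529, 66.3 and 179.7 CPM at D22, highest in D22 replicate 1, and that of 11 endothelium, blood and microglia genes was 246 and 279 CPM at D18 and 157, 245 and 307 CPM at D22. In these 3 lists the days overlapped, whereas the mesenchyme sum given above was lower in every D22 library. Of the 15 mesenchyme genes, however, 0 were called. Every D22 library was below both D18 libraries for 2 of them and above both for 1, against 20% and 19.9% of all genes. Ttr, a transthyretin gene of pigment epithelium and choroid plexus, had 75.2 and 134 CPM at D18 and 493, 28.1 and 135 CPM at D22 (log2 fold change 1.06 ± 1.92, adjusted p = 0.799) and was highest in D22 replicate 1, the library with most mitochondrial counts. Mbp, a myelin gene, had 49.7 and 64.8 CPM at D18 and 25.8, 24.2 and 24.4 CPM at D22 (log2 fold change -1.21 ± 0.21, adjusted p = 0.00122). Fn1, a matrix gene of mesenchyme, had 143 and 161 CPM at D18 and 26.3, 50.3 and 63.6 CPM at D22, lower in every D22 library, and was not called (log2 fold change -1.7 ± 0.82, adjusted p = 0.209). At D18 most of the mesenchyme sum came from Fn1 alone. Gbx2, on the list of other neural tissue and also used by amacrine cells, had 3 or fewer counts in each D18 library and 2.82, 4.19 and 4.11 CPM at D22. Kdr, on the list of endothelium and blood, had 239.8 and 274 CPM at D18 and 148, 234 and 297 CPM at D22, with overlap (log2 fold change -0.18 ± 0.39, adjusted p = 0.838). Most of the sum of that list came from Kdr alone in every library. Trpm3 and Mbp lost their calls without D18 replicate 2.

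Beyond the lists, the called genes with the widest changes include several of less studied function. Among the 15 with the highest fold at a mean log2 CPM of at least 3 were Rd3l, a relative of Rd3, with 5.51 and 1.96 CPM at D18 and 182, 158 and 95.4 CPM at D22 (log2 fold change 5.28 ± 0.56, adjusted p = 1.01e-05), and Kcne2, a potassium channel subunit, with 0.797 and 1.42 CPM at D18 and 60, 32.2 and 40.2 CPM at D22 (log2 fold change 5.31 ± 0.64, adjusted p = 3.84e-05). Hr, a nuclear corepressor, had 1.93 and 3.71 CPM at D18 and 41, 58.7 and 58.1 CPM at D22 (log2 fold change 4.22 ± 0.49, adjusted p = 2.72e-05). Each had D22 far above D18. Among the 15 lowest, Plagl1, an imprinted zinc finger gene, had 889.6 and 1125 CPM at D18 and 155, 263 and 211 CPM at D22 (log2 fold change -2.26 ± 0.34, adjusted p = 0.00031). Chrna3, a nicotinic receptor subunit of developing retina, had 203 and 292 CPM at D18 and 49.1, 68.5 and 45.8 CPM at D22 (log2 fold change -2.18 ± 0.24, adjusted p = 1.38e-05). Igfbpl1, an insulin-like growth factor binding protein relative, had 75.6 and 77.7 CPM at D18 and 9.22, 11.4 and 5.86 CPM at D22 (log2 fold change -3.12 ± 0.61, adjusted p = 0.00272). Stil, a centriole gene, had 39.3 and 75.6 CPM at D18 and 8.76, 15.1 and 14.8 CPM at D22 (log2 fold change -2.15 ± 0.32, adjusted p = 0.00033). Nhlh1, a basic helix-loop-helix factor of newborn neurons, had 30 and 34.7 CPM at D18 and 3.89, 10.2 and 6.36 CPM at D22 (log2 fold change -2.25 ± 0.38, adjusted p = 0.000814). All 5 were lower in each D22 library than in both D18 libraries. Rd3l, Kcne2, Hr, Plagl1, Chrna3, Igfbpl1, Stil and Nhlh1 kept their calls with each of the 5 libraries left out in turn.

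The next step, from D22 to D25, called 331 genes higher (1.97%) and 542 lower (3.23%). It shares the 3 D22 libraries with the first step, so the values of each step are given side by side. Without D22 replicate 2 the count of 873 became 444, and without D22 replicate 3 it became 580. Of the 23 rod cascade genes, 17 rose in the first step and 10 in the second. Gnat1 had 7.01, 7.39 and 3.74 CPM at D22 and 25.4, 45.8 and 37.7 CPM at D25 (log2 fold change 2.59 ± 0.51, adjusted p = 0.00428). Among the D25 libraries it was lowest in replicate 1, the library with 13.1% mitochondrial counts. Nrl, by contrast, was not called in the second step, with 479, 298 and 311 CPM at D22 and 812, 471 and 500.2 CPM at D25 (log2 fold change 0.71 ± 0.41, adjusted p = 0.384), and neither was Nr2e3 (log2 fold change 0.70 ± 0.41, adjusted p = 0.394). Of 43 mitosis genes, 29 fell in the first step and 40 in the second, and Mki67 had 189.9, 326 and 324 CPM at D22 and 30.8, 83.6 and 44.3 CPM at D25 (log2 fold change -2.4 ± 0.39, adjusted p = 0.00103). Of the 25 sterol genes, 8 fell in the first step and 0 in the second. Hmgcs1 had 425, 377 and 377 CPM at D22 and 549, 396 and 362 CPM at D25 (log2 fold change 0.15 ± 0.18, adjusted p = 0.73), and its days overlapped.

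In static culture over the same days, 1214 genes rose (7.23%) and 862 fell (5.13%). No library is shared with the RWB comparison, although same-numbered RWB and SSCd libraries of D22 deviated together. Of the genes that rose, 712 were called in both cultures, 70.6% of the RWB list and 58.6% of the SSCd list. Of those that fell, 520 were called in both, 63.4% and 60.3%. Without SSCd D18 replicate 2 the SSCd count of 2076 became 1142, and without SSCd D22 replicate 1 it became 1313. One gene was called in opposite directions. Abca8a, a lipid transporter gene, had 0.266 and 0.202 CPM at D18 and 1.98, 5.85 and 5.67 CPM at D22 in RWB (log2 fold change 4.22 ± 1.32, adjusted p = 0.0454), and in SSCd it had 7.57, 0.395 and 0.0698 CPM at D18 and 0.0745, 0.522 and 0.0636 CPM at D22 (log2 fold change -3.53 ± 1.12, adjusted p = 0.044), where only D18 replicate 1 was above 1 CPM. In RWB, Abca8a lost its call without D18 replicate 1 or without D18 replicate 2 or without D22 replicate 1 or without D22 replicate 2 or without D22 replicate 3.

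A test of the difference between the 2 changes, for every gene, called 0 genes (0%) with edgeR, with 525 at an unadjusted p under 0.05. DESeq2 called 12 and limma-voom 0. Cone genes held some of the low unadjusted p-values: 9 of 16 were under 0.05 with edgeR, where none passed adjustment. The median difference of the cone list was 0.94 on the log2 scale, against 0.01 for all genes tested. The rod cascade list leaned the other way, toward a smaller rise in RWB. Its median difference was -0.75, and 4 of its 23 genes were under 0.05 before adjustment. Opn1sw had 19.2, 12.5 and 14.7 CPM at D18 and 41.8, 71.9 and 24.4 CPM at D22 in SSCd (log2 fold change 1.57 ± 0.48, adjusted p = 0.0358), and its change differed by 2.34 ± 0.73 (unadjusted p = 0.00457, adjusted p = 1). Gnat2 had 62.5, 54.7 and 51.1 CPM at D18 and 27.8, 25.6 and 9.41 CPM at D22 in SSCd, where it fell (log2 fold change -1.42 ± 0.45, adjusted p = 0.0404), and its change differed by 2.48 ± 0.67 (unadjusted p = 0.0015, adjusted p = 1). Pde6h had 9.85, 8.13 and 6.63 CPM at D18 and 9.31, 4.37 and 2.48 CPM at D22 in SSCd (log2 fold change -0.61 ± 0.57, adjusted p = 0.588), a difference of 3.65 ± 0.91 (unadjusted p = 0.00069, adjusted p = 0.78). SSCd libraries were thus lower at D22 for Gnat2, while RWB libraries overlapped. Gjd2 rose in both cultures, from a higher start in SSCd, with 20, 11.5 and 11.3 CPM at D18 and 36.6, 27.7 and 26.2 CPM at D22 (log2 fold change 1.08 ± 0.22, adjusted p = 0.00217), and the difference was 1.92 ± 0.34 (unadjusted p = 1.69e-05, adjusted p = 0.198). Cpt1a did not move in SSCd beyond its spread, with 29.2, 35.4 and 22.7 CPM at D18 and 32.8, 29.3 and 21.3 CPM at D22 (log2 fold change -0.07 ± 0.30, adjusted p = 0.932), and differed by -2.23 ± 0.45 (unadjusted p = 7.4e-05, adjusted p = 0.414). DESeq2 called the difference for Gjd2, Cpt1a and Pde6h (adjusted p = 0.000741, 0.0056 and 0.0306) and edgeR did not, so these differences depend on the tool.

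**Figure D5:**
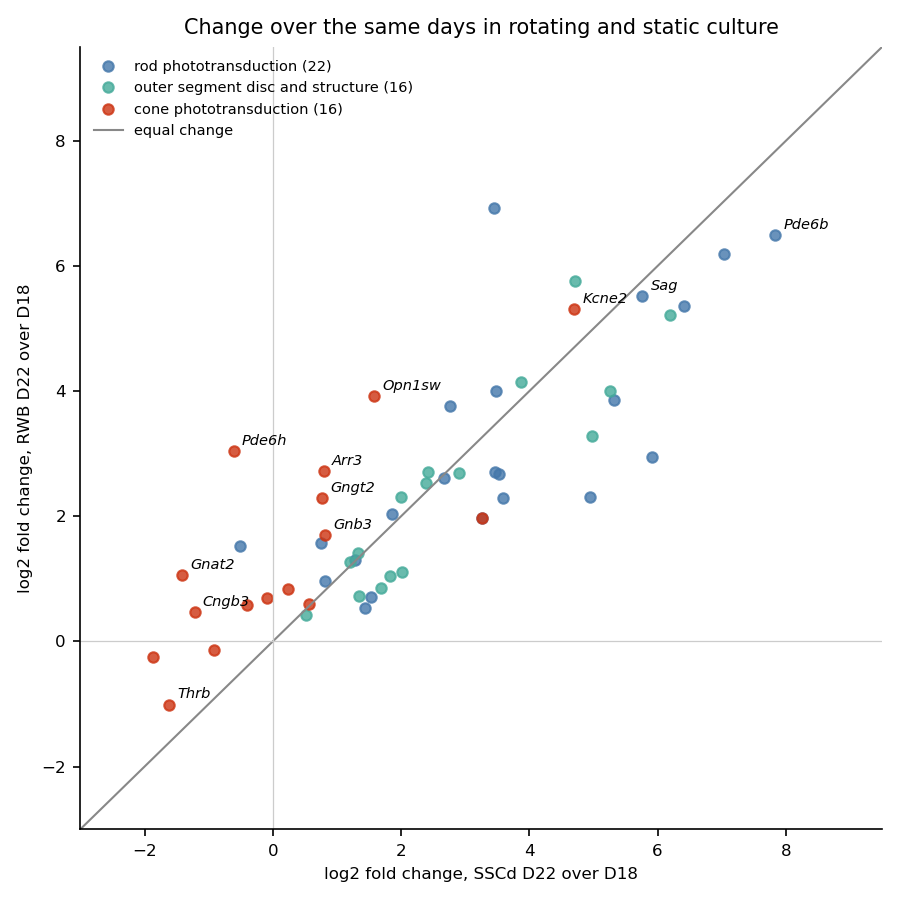
Log2 fold change from D18 to D22 in SSCd (x axis) and in RWB (y axis) for members of the rod, disc and cone lists; the grey line marks equal change, and Cnga1, with too few counts at D18, is not drawn. Rod and disc genes lie on both sides of the line, and the median difference (RWB less SSCd) of the rod list was -0.75. Opn1sw, Pde6h, Arr3, Gngt2 and Gnat2 lie above the line.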

How the data were processed

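Polyadenylated RNA of 5 libraries, RWB D18 (2) and RWB D22 (3), was compared, within a fit of all 24 libraries in 9 groups taken from the titles. Tools listed, without a role, in the submitters' processing notes are limma 3.32.2, edgeR 3.13.9 and kallisto 0.42.5, beside the build GRCm38.p5. The gene and transcript tables deposited by the authors hold estimated counts that are not normalized. How transcripts were summed to genes is not given in the sources used here, and reads of near-identical gene copies cannot be placed with certainty by such estimates.

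After rounding of the estimated counts, filterByExpr kept 16792 of 33846 genes, and TMM scaled the libraries. The robust quasi-likelihood F-test of edgeR 4.0.16 (R 4.3.3; median biological coefficient of variation 0.256) was run on group means, and p-values were adjusted by Benjamini-Hochberg across the whole table (threshold 0.05). All groups shared 1 estimate of the spread because single groups are small. Each standard error was derived from the fold and its F statistic. The test was also run on simulated counts drawn with the fitted spread and independent libraries. Such counts cannot show the effect of same-numbered libraries that deviate together. DESeq2 1.42.0, limma-voom (limma 3.58.1), other scalings, filters and sets of libraries were alternatives. Folds were withheld where every library of a day had 3 or fewer counts. With such genes set to a floor of 3 counts per library, the medians given here changed only for bipolar cells (0.70 in place of 0.71) and horizontal cells (0.00 in place of -0.15). P-values measure the spread between these libraries.

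Genes are named by a rule: the 15 highest and the 15 lowest folds among called genes (mean log2 CPM of at least 3, no overlap), a panel of 20, and of each of 32 lists up to 8 called members of smallest p in the main direction, all called the other way and up to 3 uncalled of highest CPM. The text gives a selection, some genes are not reported here, and Pmel, Prom1, Rorb, Top2a, Cdc6, Sall3 and the genes of the flagged results were added after their values were seen. The members and lists were chosen with earlier results of these data known.

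Deviations from group means were correlated between libraries with the same number. RWB D22 and D25 (correlations 0.683, 0.325 and 0.606), SSCd D18 and D22 (0.547, 0.143 and 0.499) and RWB and SSCd at D22 (0.612, 0.38 and 0.579) passed a minimum of 0.1 in every pair. The main fit nevertheless held no term for the replicate number. Pairing entered only the replicate block, an alternative fit, and rests on this check. RWB D18 and D22 share only the numbers 1 and 2 (0.136 and -0.147).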

Additional observations from a re-analysis of the deposited data

Results flagged for a closer look

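For 12 genes DESeq2 called a difference between the RWB and SSCd changes over these days, while edgeR's test of the same difference called 0. Sall3, a zinc finger factor used by cones and horizontal cells, had 10.3 and 5.19 CPM at D18 and 13.3, 13.4 and 13.1 CPM at D22 in RWB, and 4.63, 7.96 and 8.58 CPM and 0.819, 2.09 and 0.827 CPM on the same days in SSCd (DESeq2 adjusted p = 0.000176; edgeR difference in log2 change 3.27 ± 0.59, adjusted p = 0.198). Lhx4, a LIM homeodomain factor of cones and bipolar cells, had 40.4 and 22.4 CPM at D18 and 103, 80.9 and 62.7 CPM at D22 in RWB, and 48.0, 43.7 and 62.5 CPM and 36.8, 37.2 and 17.3 CPM on the same days in SSCd (DESeq2 adjusted p = 0.0346; edgeR difference in log2 change 2.14 ± 0.51, adjusted p = 0.779). Sall3 and Lhx4 were lower in every SSCd library at D22 than at D18, and in RWB every D22 library was above both D18 libraries. Syndig1l, a membrane protein gene, had 5.11 and 2.83 CPM at D18 and 16.2, 10.0 and 12.8 CPM at D22 in RWB, and 18.6, 12.3 and 14.1 CPM and 7.97, 6.07 and 4.77 CPM on the same days in SSCd (DESeq2 adjusted p = 0.00886; edgeR difference in log2 change 2.97 ± 0.65, adjusted p = 0.59). Arhgef26, a guanine nucleotide exchange factor gene, had 8.76 and 12.1 CPM at D18 and 6.86, 12.2 and 13.3 CPM at D22 in RWB, and 5.52, 4.41 and 3.49 CPM and 29.4, 15.7 and 13.4 CPM on the same days in SSCd (DESeq2 adjusted p = 0.00978; edgeR difference in log2 change -2.08 ± 0.43, adjusted p = 0.483). Syndig1l was higher in each RWB library at D22 and was lower in each SSCd library at D22, while Arhgef26 overlapped in RWB and was higher in each SSCd library at D22. The values of Gjd2, Cpt1a, Pde6h and Abca8a are given above, and DESeq2's adjusted p was 0.000741, 0.0056, 0.0306 and 0.00214. The other 4 genes, Gm14440, Gm6055, Casp12 and Gm10340, were near or at 0 CPM in most of these libraries, so no fold is given (DESeq2 adjusted p = 8.38e-05, 0.00693, 0.00978 and 0.00978).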

How the results depend on the processing

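The 1829 genes called between RWB D18 and D22 became between 365 and 1624 when 1 library was left out, with the lowest counts without D18 replicate 2 (365) and D22 replicate 1 (1106). They became 865 (579 higher and 286 lower) in a fit of the 8 RWB libraries only, while a fit of the 5 RWB D18 and D22 libraries gave 1634. Under the other alternatives the count lay between 1454 (no filter on low counts) and 2626 (replicate block), with 2568 for DESeq2 and 1740 for limma-voom. The difference between the changes in RWB and SSCd was called for 0 genes under each alternative but DESeq2 (12), and leave-one-out counts were 0 throughout. D25 against D22 went from 873 to 1405 with DESeq2, to 1249 with the replicate block, and to between 444 (without D22 replicate 2) and 751 with 1 library left out. SSCd D22 against D18 went from 2076 to 2579 with the replicate block and to between 1142 (without SSCd D18 replicate 2) and 1742 with 1 library left out. The cause of these shifts was not tested.

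Of 152 genes named in the text and tested, 121 were called, and 63 of these kept the call and the direction in every alternative. Calls were lost for 54 without D18 replicate 2, for 20 without D18 replicate 1, for 17 without D22 replicate 1, for 21 in the fit of 8 RWB libraries and for 1 with the replicate block, which added 7. No called gene reversed. Of the genes not called, 9 reversed when some library was left out, with log2 fold changes over those fits of Dct (-1.03 to 1.09), Glul (-0.325 to 0.0191), Kdr (-0.424 to 0.0527), Pax6 (-0.125 to 0.0381), Pde6c (-0.343 to 0.106), Rorb (-0.402 to 0.0403), Sox4 (-0.218 to 0.015), Ttr (-0.368 to 1.59) and Unc13b (-0.0624 to 0.704). Pde6c also reversed with the replicate block (0.0187). Moved short exons numbered 10 at a limit of 10 points and 5 at 20 points, both limits chosen after seeing the data. Leaving 1 library at D18 assumes that it varies like the other groups. With 2 libraries at D18, a gene not called is not shown to be unchanged.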
